A study of Mus musculus with 2 samples.

Results

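The genes described here form the switch between cyclic AMP (cAMP) and gene transcription: the salt-inducible kinases (Sik1, Sik2, Sik3), the CREB coactivators (Crtc1, Crtc3), the transcription factors Creb1 and Crem, the NR4A nuclear receptors (Nr4a1, Nr4a3) and the coactivator gene Ppargc1a. They were chosen by name, as 10 gene symbols, and each was read from 1 probe set, the one with the highest mean of both arrays. Of the 10, 9 had a named probe set among the 19505 genes named on the array, 1 each, and Crem was not analysed here. Expression was measured in the pigmented mouse melanoma line B16F10, whose cells had been co-transfected with a puromycin resistance vector and an expression plasmid for either GFP or NRF3 and selected with puromycin as stable cells. NRF3 is the product of Nfe2l3 and one of the cap'n'collar transcription factors. Forskolin was given to both for 5 days, so the comparison is NRF3 against GFP under forskolin, and the response to forskolin itself was not measured. Each group was 1 Affymetrix array made from 100.0 ng of total RNA. The labels give neither the promoter of the plasmids, nor the forskolin dose, nor the number of clones. With 1 array per group there was no replicate check, and the differences below carry neither errors nor p-values.

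Forskolin activates adenylate cyclase, and the cAMP it makes activates protein kinase A. Protein kinase A phosphorylates CREB and also the salt-inducible kinases, which otherwise phosphorylate the CRTC coactivators and hold them in the cytoplasm bound to 14-3-3 proteins. When the kinases are inhibited, dephosphorylated CRTC enters the nucleus, joins CREB on the cAMP response element (CRE) of its target genes, and induces among others Nr4a1, Nr4a3, Ppargc1a and Sik1 itself, which closes a negative feedback loop. In melanocytes this pathway induces Mitf, the master regulator of pigment genes, and Sik2 is known as a brake on that induction.

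The promoters of the CREB target genes among them are shown first, because the members that differed most between the arrays belong to that group. Of the 10 genes, 8 had an entry in the RefSeq promoter table (build GRCm38.p6), which covers 250 bases before and 50 bases from the annotated start of 1 transcript, and Sik1 and Crem are those without one. The windows were searched on both strands for the CRE palindrome TGACGTCA and for its short form TGACG, which lies inside the palindrome. The sequences below are the 250 bases before the start on the gene's strand, 5′ to 3′, with TGACG or its reverse complement CGTCA in capitals. Nr4a3 is at chr4:48045055-48045304 (+ strand), Nr4a1 at chr15:101266596-101266845 (+ strand), Ppargc1a at chr5:51567726-51567975 (- strand) and Sik3, shown as a kinase gene whose window holds several copies, at chr9:46012570-46012819 (+ strand).
Nr4a3: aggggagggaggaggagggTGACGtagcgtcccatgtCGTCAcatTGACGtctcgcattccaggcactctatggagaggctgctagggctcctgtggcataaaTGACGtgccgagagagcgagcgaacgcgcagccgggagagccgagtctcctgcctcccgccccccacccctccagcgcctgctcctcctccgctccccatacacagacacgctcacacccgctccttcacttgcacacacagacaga
Nr4a1: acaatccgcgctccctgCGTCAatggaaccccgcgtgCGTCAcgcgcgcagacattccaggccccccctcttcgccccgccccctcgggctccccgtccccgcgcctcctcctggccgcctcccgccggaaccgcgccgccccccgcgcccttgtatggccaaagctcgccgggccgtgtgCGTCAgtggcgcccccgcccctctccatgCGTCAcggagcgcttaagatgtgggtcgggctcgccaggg
Ppargc1a: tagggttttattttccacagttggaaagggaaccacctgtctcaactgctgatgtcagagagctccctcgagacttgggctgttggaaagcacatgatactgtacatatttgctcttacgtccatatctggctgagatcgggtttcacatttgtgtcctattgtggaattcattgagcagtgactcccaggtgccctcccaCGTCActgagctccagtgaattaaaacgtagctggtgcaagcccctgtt
Sik3: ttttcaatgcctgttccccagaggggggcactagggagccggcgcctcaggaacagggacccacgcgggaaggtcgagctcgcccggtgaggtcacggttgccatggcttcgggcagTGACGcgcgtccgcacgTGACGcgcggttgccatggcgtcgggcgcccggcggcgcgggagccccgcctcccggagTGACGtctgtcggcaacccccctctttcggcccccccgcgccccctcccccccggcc
Nr4a3 and Nr4a1 held 4 copies of the short motif each. Among the 32851 promoter windows of the table, 0.231% held 4 or more copies, and 20.8% held at least 1. The motif contains the bases CG, and the windows of Nr4a1 and Nr4a3 were 72.3% and 64.7% G or C. The shares over all windows were not matched for this content, so they do not show an excess of the motif. In Nr4a1 all 4 copies lay on the opposite strand, starting 233, 213, 69 and 40 bases before the start. In Nr4a3 they started 231, 213, 205 and 147 bases before it, 3 of them on the gene's strand. Ppargc1a held 1 copy, 49 bases before the start. Sik3 held 3 copies, at 133, 116 and 57 bases. Sik2 held 2, of which the first spans the start and the second begins at base 13 after it. Crtc1, Crtc3 and Creb1 held none. No member held the whole palindrome TGACGTCA, which was found in 1.79% of all windows. The core of the antioxidant response element, TGACNNNGC, to which cap'n'collar factors are known to bind, was found in 1 member, Nr4a3, where it begins with the same 5 bases as the copy at 231, and in 12.4% of all windows. The NR4A response element AAAGGTCA was found in no member and in 1.51% of all windows. These are matches of letters in short windows and no evidence of binding, and other transcripts of a gene can start elsewhere.

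**Figure D1:**
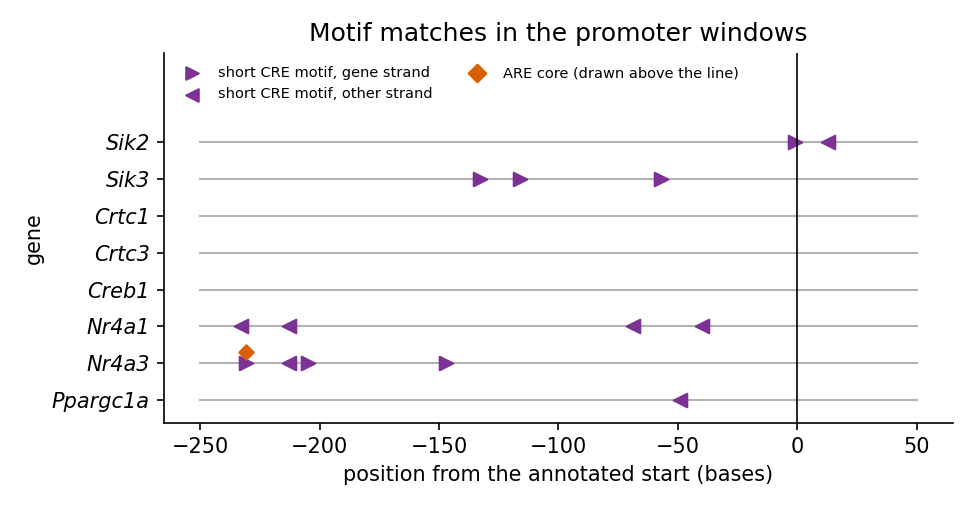
Position of motif matches in the promoter windows of 8 genes, in bases from the annotated start of the gene (vertical line). Triangles mark the first base of the short CRE motif on either strand and the diamond the antioxidant response element (ARE) core: Nr4a1 and Nr4a3 hold 4 short CRE motifs each, and Crtc1, Crtc3 and Creb1 none.

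The deposited values are on the log2 scale of the robust multi-array average (RMA), and a gene counts as detected here if its higher value is at least 5.89, which is the median over the named probe sets. By this rule 10162 of the 19505 named genes were detected, among them all 9 members with a probe set. The 5222 control rows named neg had upper quartiles of 7.52 (GFP) and 7.85 (NRF3), which serve below as a stricter mark of dim signal. Nfe2l3 had values of 6.04 (GFP) and 10.15 (NRF3), as the labels call for. Of the marker genes of other cell types, Pdgfrb, with values of 6.02 and 5.79, was the 1 gene detected of 17 named, and all 7 melanocyte markers were detected, Tyrp1 at 18.90 and 18.95. Across the detected genes the NRF3 minus GFP difference had a median of -0.07 and quartiles of -0.55 and 0.39. The balance of higher and lower genes depends on the scaling: of the genes past 1.5-fold, 41.9% were higher as deposited and 53.5% after each array was centred on its median, a shift of 0.13. The 4 hybridization controls bioB, bioC, bioD and cre, which are spiked into the sample, were higher on the NRF3 array by 0.38, 0.27, 0.21 and 0.18. All 4 lay in 1 direction, an offset between the arrays rather than a spread, and they hold no variation between cell cultures. For the 15 genes with several detected probe sets, the gap between their probe sets was taken on the same 2 arrays. The highest and lowest NRF3 minus GFP differences of a gene lay a median of 0.33 apart, with quartiles of 0.14 and 0.54. These gaps too hold no variation between cell cultures.

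Past the 1.5-fold rule lay 3 of the 9 genes: Nr4a3 and Ppargc1a were higher with NRF3, and Sik1 was lower. Of all detected genes, 40.6% lay past this rule, 17.0% higher and 23.6% lower. The same 3 members passed 2-fold, as did 17.8% of all detected genes, 6.75% higher and 11.0% lower. At 1.5-fold the 3 of 9 are a smaller share than that of all detected genes and at 2-fold a larger one, so the count does not set the group apart. The other 6, which are the remaining kinases, both coactivators, Creb1 and Nr4a1, differed by less than 1.5-fold. The median difference of the 9 was 0.03, beside -0.07 over all detected genes, and single members lay far out on both sides.

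**Figure D2:**
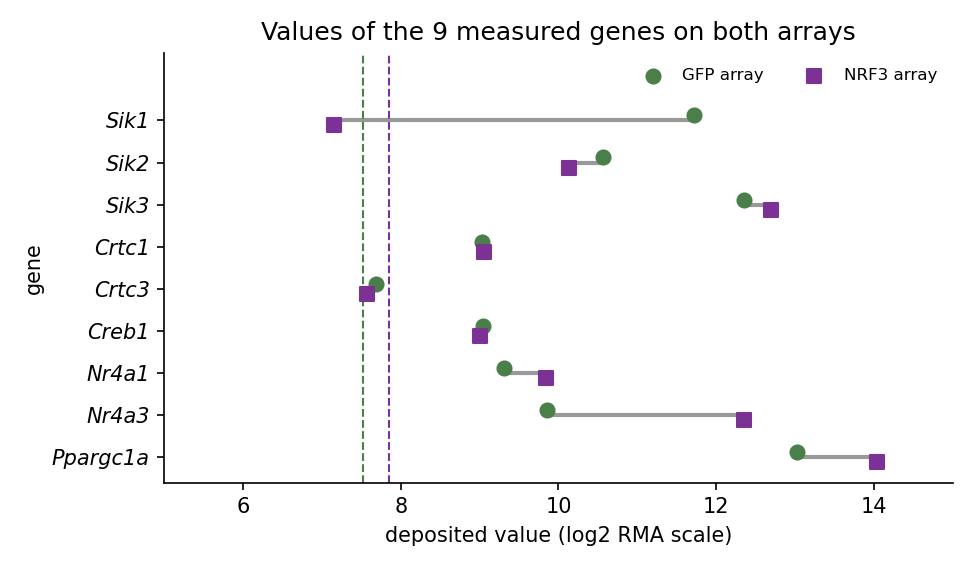
Deposited values (log2 RMA scale) of the 9 genes on the GFP array (circles) and the NRF3 array (squares), 1 array each, with a grey line joining them. Dashed lines mark the upper quartiles of the control rows named neg, 7.52 (GFP) and 7.85 (NRF3): Sik1 lies at 11.72 (GFP) and 7.15 (NRF3), the latter under its mark, and Nr4a3 at 9.86 and 12.35.

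Sik1 (NCBI gene 17691, chromosome 17), the cAMP-inducible member of the kinase family, had a value of 11.72 with GFP and 7.15 with NRF3. The GFP value lay well above the mark of 7.52, while the NRF3 value lay under its mark of 7.85 and cannot be told from dim signal. The difference as deposited was -4.57, a size that depends on that dim value. Set against the mark instead, it was -3.87, or 14.6-fold lower with NRF3 on this scale. With 1 array per group this fold carries no error, so it is no lower bound. No other scaling was combined with the mark. As deposited, Sik1 was the 11th lowest of the 10162 detected genes, and 0.128% of them differed as much in either direction. With the values of all detected genes raised to the marks, it was the 9th lowest, and 0.0984% differed as much. Raising also changes the other genes with a value under a mark, so the place after raising is no stricter check. The 500 detected genes nearest to Sik1 in mean level had differences with quartiles of -0.59 and 0.36. In a bulk RNA sample, fewer cells with the transcript and less transcript per cell cannot be told apart.

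Sik2 (NCBI gene 235344) and Sik3 (NCBI gene 70661), which lie on chromosome 9 and encode kinases not known as cAMP-inducible in the manner of Sik1, differed little. Sik2 had values of 10.56 with GFP and 10.14 with NRF3, a difference of -0.43. Sik3 had 12.35 and 12.69, a difference of 0.35. As large a difference in either direction was found for 54.2% of detected genes in the case of Sik2 and 61.8% in that of Sik3. In size, Sik2 differed by more than all 4 spiked controls (0.18 to 0.38) and Sik3 by more than 3 of them. Those controls were all higher on the NRF3 array and hold no variation between cell cultures. They therefore cannot show whether either difference exceeds such variation. Sik2 and Sik3 both differed by more than the median gap of 0.33 between probe sets of 1 gene and by less than its upper quartile of 0.54. Within the kinase family, the large difference was thus that of Sik1.

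The coactivator genes and Creb1 had nearly equal values on both arrays. Crtc1 (NCBI gene 382056), a CRTC first known from a salivary gland tumour fusion, had values of 9.03 and 9.06 on the GFP and NRF3 arrays, a difference of 0.03. Crtc3 (NCBI gene 70461) had 7.68 and 7.56, a difference of -0.12, and its NRF3 value lay under the mark of 7.85. Creb1 (NCBI gene 12912), the CRE-binding factor on which CRTC proteins act, had 9.04 and 9.0, a difference of -0.04. Differences at least as large were found for 96.6%, 86.7% and 95.6% of detected genes respectively. The signs were not stable: Crtc3 and Creb1 lay at 0.01 and 0.09 after median centring, and Crtc1 at -0.05 relative to its 50 nearest detected genes. The regulation of these proteins by phosphorylation and location cannot be read from RNA.

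Crtc1 and Creb1 lie on the chromosomes whose detected genes were shifted most among those with over 100 of them. The median difference was 0.56 over 549 genes of chromosome 8, where Crtc1 lies, and -0.51 over 552 genes of chromosome 1, where Creb1 lies. Relative to these medians Crtc1 differed by -0.53 and Creb1 by 0.47. The 50 detected genes nearest to Crtc1 had a median of 0.08 and those nearest to Creb1 one of -0.46, so Crtc1 was close to its neighbours and Creb1 was above them by 0.42. What part the chromosomal shifts have in these values was not tested.

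The NR4A receptors are nuclear receptors without a known hormone, and they act as immediate-early targets of cAMP. Nr4a3 (NCBI gene 18124, chromosome 4), which encodes NOR1, had a value of 9.86 with GFP and 12.35 with NRF3. The difference as deposited was 2.49, or 5.64-fold. It was the 28th highest of 10162, and 1.13% of detected genes differed as much in either direction. Both values lay above the marks of dim signal. The 500 genes nearest in mean level had quartiles of -0.51 and 0.41. Nr4a3 lay furthest up of the 9 genes, and Sik1 furthest down, and both are classed as CREB targets.

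Nr4a1 (NCBI gene 15370, chromosome 15), which encodes NUR77, had values of 9.31 and 9.84, a difference of 0.52 or 1.44-fold, just short of the 1.5-fold rule (0.58). It passed the rule after median centring, with 0.65, and relative to the median of its chromosome, with 0.80. As large a difference was found for 45.7% of detected genes, so it does not stand out among them. Nr4a2, which encodes NURR1, the remaining receptor of the family, had 6.44 and 6.91, both under the marks, and its difference of 0.47 cannot be told from dim signal. Of the 3 receptor genes, Nr4a3 was thus the 1 past 1.5-fold on the deposited values.

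Ppargc1a (NCBI gene 19017, chromosome 5) encodes PGC-1α, a coactivator of mitochondrial biogenesis that is known as a MITF target in melanoma. Its values were 13.03 with GFP and 14.04 with NRF3. The difference of 1.01, or 2.02-fold, was the 666th highest, and 17.2% of detected genes differed as much in either direction. The 50 detected genes nearest to it on chromosome 5 had a median of 0.30, and relative to them Ppargc1a differed by 0.71. Mitf was at 14.26 and 15.19, a difference of 0.93, and Tyr, which encodes tyrosinase, at 11.67 and 13.08, a difference of 1.41. These were the 2 of 7 melanocyte markers at least 1.5-fold higher, and none was as much lower, beside 17.0% and 23.6% of all detected genes, with a median of 0.05. The others were Pmel (0.12), Tyrp1 (0.05), Dct (-0.25), Sox10 (-0.49) and Mlana (-0.56).

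**Figure D3:**
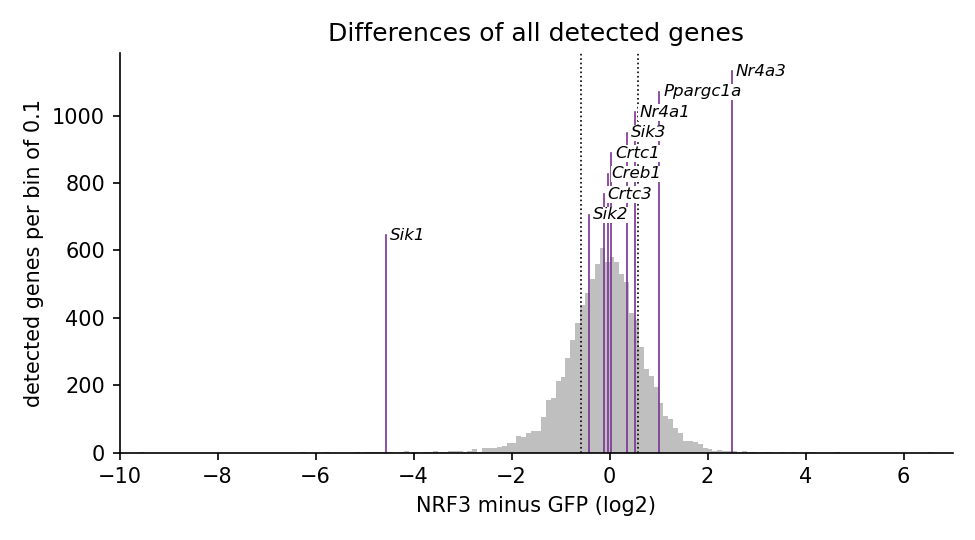
Distribution of the NRF3 minus GFP difference (log2) over the 10162 detected genes, in bins of 0.1 (grey), with the 9 genes as vertical lines whose heights carry no value. Dotted lines mark 1.5-fold: Sik1 at -4.57 and Nr4a3 at 2.49 lie in the tails, Ppargc1a at 1.01 on the upper shoulder, and 6 genes between the dotted lines.

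The genes nearest to these 3 in their difference, over the 2 arrays, were Hspb8 (-4.61) and Map1a (-4.64) for Sik1, Fzd6 (2.50) and Blvrb (2.48) for Nr4a3, and Il2ra (1.01) and Aga (1.02) for Ppargc1a. Hspb8, at 4.88, and Map1a, at 4.43, had NRF3 values under the detection floor, and both values of Il2ra, 5.22 and 6.24, were dim. With 2 arrays such likeness is of size only.

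Among genes for LKB1 and its partners, protein kinase A subunits and the 14-3-3 proteins that bind phosphorylated CRTC, 16 of 17 were detected. None was at least 1.5-fold higher and 3 were as much lower, beside 17.0% and 23.6% of all detected genes, with a median of -0.13. Stk11, which encodes LKB1, the kinase that activates the SIKs, differed by -0.32 (12.43 and 12.10). Prkar2b, a regulatory subunit gene of protein kinase A, was lowest, at 9.50 with GFP and 8.11 with NRF3, a difference of -1.39. Strada, a pseudokinase partner of LKB1, came next at -0.83, with both values dim (6.52 and 5.70). The catalytic subunit gene Prkaca lay at 0.56, just under the rule, and Prkacb, which encodes another catalytic subunit, at -0.73. Prkaca lies on chromosome 8 with its median of 0.56. Cab39, which encodes the LKB1 scaffold MO25, lay at 0.19. After median centring, quantile normalization or subtraction of the intensity trend, 1 gene was past the rule on the higher side. The list median stayed below 0 under these scalings and was 0.09 with the median of 50 neighbours subtracted.

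Genes of calcineurin, which dephosphorylates CRTC, and of protein phosphatase 2A had the lowest median of the 7 pathway lists. Of 6 detected genes 3 were at least 1.5-fold lower and 1 higher, beside 23.6% and 17.0% of all detected genes, with a median of -0.52. All 6 had both values above the marks of dim signal. Ppp3ca, a catalytic subunit gene of calcineurin, had 11.05 with GFP and 9.71 with NRF3, a difference of -1.34. Ppp3cc, another catalytic subunit gene, differed by -0.73 (10.82 and 10.09), and Ppp3cb by -0.15. Rcan1, a calcineurin regulator and itself a calcineurin target, differed by -0.67. The count of lower genes was 2 after median centring, quantile normalization or subtraction of the intensity trend or of chromosome medians. Ppp2cb, a catalytic subunit gene of protein phosphatase 2A, was higher by 0.98, and it lies on chromosome 8. Relative to the median of that chromosome it no longer passed 1.5-fold. The list median stayed between -0.52 and -0.38 under every alternative run.

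Class IIa histone deacetylases are the other well-known substrates of the SIKs, and they repress MEF2 factors. Of 5 detected genes 1 was at least 1.5-fold lower and none higher, beside 23.6% and 17.0% of all detected genes, with a median of -0.28. With the detection floor at the 75th percentile of named values, which leaves only Mef2a and Mef2d, the median was 0.11. Hdac4 had 9.35 with GFP and 8.11 with NRF3, a difference of -1.25, and it lies on chromosome 1, whose median was -0.51. Mef2c differed by -0.43, Mef2d by 0.01 and Mef2a by 0.20.

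Among CREB relatives, acetyltransferases that CREB recruits and Crtc2, 8 of 8 genes were detected, 2 at least 1.5-fold higher and 2 lower, beside 17.0% and 23.6% of all detected genes, with a median of 0.19. The count of lower genes was 1 under the 3 other scalings and with chromosome or neighbour medians subtracted. Crtc2, which completes the CRTC family, had 11.54 and 11.79, a difference of 0.25. Atf1, a close relative of Creb1, had 9.53 and 9.47, a difference of -0.05. The acetyltransferase genes Kat2a and Ep300 differed by -1.20 and -0.63, and Kat2b by 0.69 from a GFP value of 7.47 that was dim. Creb5, at 0.64, had both values dim. The acetyltransferase Crebbp, or CBP, differed by 0.42. Creb1, Atf1 and the 3 CRTC genes thus all lay within 1.5-fold.

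Other genes that cAMP induces in many cells were mostly dim. Of 19 named genes 9 were detected, and 3 of those had both values above the marks. These were Atf3, with 13.14 with GFP and 11.00 with NRF3, a difference of -2.14, Dusp1, at -0.12, and Pde4b, at 0.16. Atf3, a stress-induced repressor, lies on chromosome 1. In the whole list 2 detected genes were at least 1.5-fold higher and 2 lower, beside 17.0% and 23.6% of all detected genes, with a median of 0.16. With stricter floors few genes remained, and the median was below 0. At the marks of dim signal it was -0.12, the value of Dusp1, with Atf3, Dusp1 and Pde4b left. At the 75th percentile of named values it was -1.13, with only Atf3 and Dusp1 left. Irs2 (1.64) and Junb (0.71), the higher ones, both on chromosome 8, had both values under the marks, as did Btg2 (-0.998). Fos, Fosb and Egr1 were under the detection floor on both arrays. Of the CREB targets among the 9 genes and this list that lay above the mark with GFP, Sik1 and Atf3 were thus lower with NRF3. Nr4a3 and Ppargc1a were higher, and Nr4a1, Dusp1 and Pde4b lay within 1.5-fold. Mitf, which this pathway also induces, was counted with the melanocyte markers, with a difference of 0.93.

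Of 12 detected relatives and targets of PGC-1α, 1 was at least 1.5-fold higher and 3 were lower, beside 17.0% and 23.6% of all detected genes, with a median of -0.19. The count of lower genes was 2 under the 3 other scalings and with chromosome or neighbour medians subtracted. With neighbour medians subtracted, none was higher. Gabpa, a nuclear respiratory factor, was higher by 0.66 (9.98 and 10.64). Gpx1, a glutathione peroxidase gene, had 13.00 with GFP and 11.52 with NRF3, a difference of -1.48, and Tfb2m, of mitochondrial transcription, differed by -1.39 on chromosome 1. Tfam, the main mitochondrial transcription factor, differed by -0.43, Nrf1 by -0.03 and Cycs, the gene of cytochrome c, by -0.07. Ppargc1b, the closest relative of Ppargc1a, lay at 0.21 with both values dim.

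**Figure D4:**
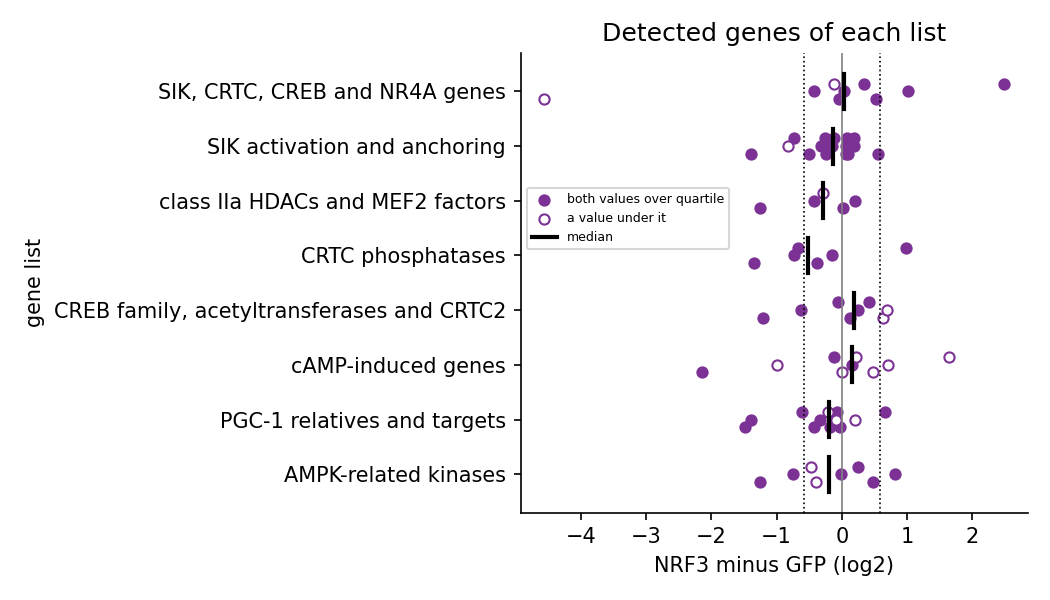
NRF3 minus GFP difference (log2) of the detected genes of each list, with filled points where both values lie over the upper quartiles of the control rows named neg and open points where a value lies under. The black bar is the list median and dotted lines mark 1.5-fold: the phosphatases have the lowest median, -0.52, and the 9 genes described here spread from -4.57 to 2.49.

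**Figure D5:**
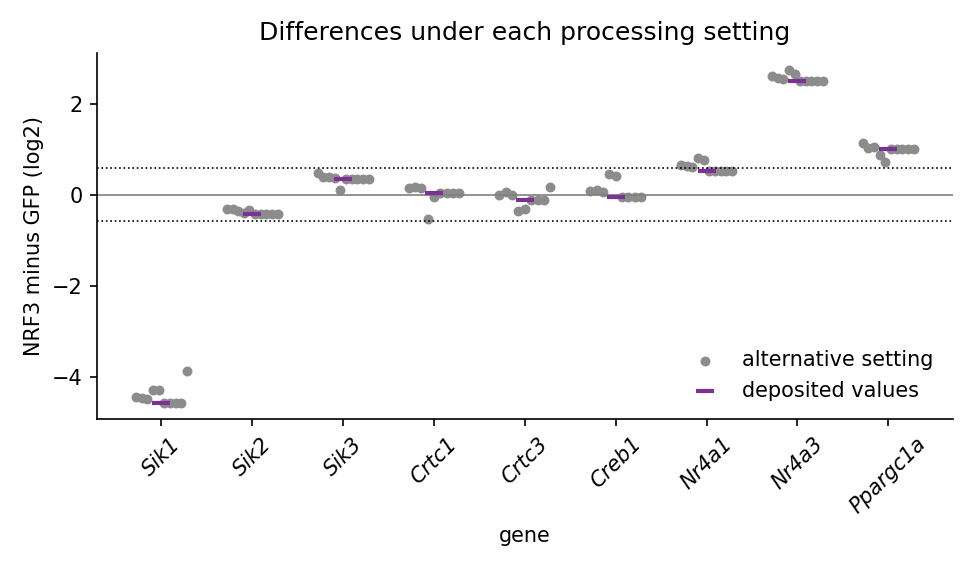
NRF3 minus GFP difference (log2) of each of the 9 genes with the values as deposited (bar) and under each alternative setting (grey points, spread sideways for sight only). The points of the mean over probe sets and of the other detection floors repeat the deposited value. Dotted lines mark 1.5-fold: Sik1 stays between -4.57 and -3.87, Nr4a3 between 2.49 and 2.75 and Ppargc1a between 0.71 and 1.14, while Nr4a1 crosses the line.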

How the data were processed

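Total RNA of B16F10 cells was measured on 2 arrays, 1 for GFP and 1 for NRF3, after 5 days of forskolin per the labels. The deposited values are log2 expression values made by the authors with Affymetrix Expression Console and RMA, per the submitters' processing notes, with version and settings not given in the sources used here. The highest values, 19.8 and 19.7, exceed what a 16-bit scanner can give (16 on the log2 scale), so folds are folds on the deposited scale. Probe sets were named from the platform annotation (19572 of 28846 rows had 1 symbol, and all 19572 matched RefSeq by gene number). The NRF3 value minus the GFP value was computed in Python 3.11.15 with pandas 2.3.3. The size rule and the subtraction of neighbour medians were run on simulated differences, some of them planted well past the rule. That checks the code of these steps only and does not measure how noise affects the results. The number of arrays limits the precision, and no test was possible. The genes, lists and size rules were chosen with earlier results of these data known. Named were the 9 measured genes, the 2 highest and 2 lowest detected genes of each list, the 2 genes nearest in difference to each member past 2-fold, Nfe2l3 and melanocyte markers. Others, such as Stk11, Crtc2, Atf1, Crebbp, Rcan1, Dusp1, Pde4b, Nr4a2, Tfam, Nrf1, Cycs, Prkacb, Fos, Fosb and Egr1, were chosen after their values were seen. Alternatives were other scalings (median, quantile, lowess with span 0.3), subtraction of chromosome or neighbour medians, other floors, the mean over probe sets and the 2-fold rule.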

Additional observations from a re-analysis of the deposited data

How the results depend on the processing

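The counts of members detected, higher and lower and their median stayed in the same class under all alternatives run (42 of 42 values): 6 to 9 detected, 2 to 3 higher, 1 lower, and a median between 0.03 and 0.43. Counts that moved by up to 1.5 times were put in the same class, as was a median that stayed within 1.5-fold. These classes are wide, and the mean over probe sets could not change the values, with 1 probe set per member. Of the 87 values of single members, 82 stayed on the same side of 1.5-fold. The other 5 were all of Nr4a1, which passed it under the 3 other scalings and with chromosome or neighbour medians subtracted, at 0.61 to 0.80. Part of the 87 could not move, because each member had 1 probe set and a detection floor removes a gene without changing its difference. The mean over probe sets and the other detection floors thus repeat the deposited differences and are no check of them. With a floor at the named values' 75th percentile, Crtc1, Crtc3 and Creb1 were no longer detected. None of the values past 1.5-fold changed sign. Of the 224 counts and medians of the 7 pathway lists, 43 moved by over 1.5 times or across 1.5-fold. Among them is the median of the other cAMP-induced genes, -1.13 with that floor, which leaves only Atf3 and Dusp1. No paired analysis was possible because each group had 1 array. Dim signal limits Sik1, Crtc3 and most of the other cAMP-induced genes.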

Other observations

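The SIKs belong to the group of kinases related to AMPK, most but not all of which LKB1 activates. Of 11 other named genes of that group 8 were detected, with 1 higher and 2 lower by at least 1.5-fold, beside 17.0% and 23.6% of all detected genes. Their median difference was -0.20, which stayed below 0 under the 3 other scalings. It was above 0 with chromosome (0.09) or neighbour (0.22) medians subtracted and with the floor at the upper quartiles of the control rows named neg (0.12). With values raised to these quartiles it was 0.29. Raising gives every gene under both quartiles, here Mark1 and Mark2, the same positive difference, because the quartile of the NRF3 array is the higher one. The sign of that median is therefore no result about the genes. The catalytic subunit genes of AMPK itself lay on opposite sides. Prkaa1 had 10.60 with GFP and 11.41 with NRF3, a difference of 0.81, and Prkaa2 had 9.89 and 8.63, a difference of -1.25. Melk, a kinase gene of dividing cells, differed by -0.75 (11.27 and 10.52) and Snrk by 0.47 (10.06 and 10.53). Mark3, which encodes a kinase of cell polarity, differed by -0.01. The 8 genes thus ranged from -1.25 to 0.81.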
